A study of Mus musculus with 12 samples.

Results

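The comparison described here set CD4 T cells of FlipFlop mice against CD4 T cells of B6 mice. Both populations carried the same coreceptor protein on their surface, but the gene locus that encoded it differed. The comparison drew on 6 of the 12 RNA-sequencing libraries of the series, with 3 replicates per group. It also drew on the 11117 of 12809 listed genes with at least 1 CPM (reads scaled to the size of the library) in at least 3 of these 6 libraries. B6 CD4 T cells were sorted from the LN (lymph nodes) of female C57BL/6 mice aged 10 weeks. FlipFlop CD4 T cells were sorted from the LN of female FlipFlop mice aged 14 weeks. These ages and the sex are those of the labels, whereas the methods give for all mice an age range that ends below that of the FlipFlop mice, and both sexes unless stated otherwise. On both copies of chromosome 6 of FlipFlop mice, the Cd8a locus had been altered to encode CD4 protein and the Cd4 locus to encode CD8αβ proteins. The altered Cd4 locus was made in B6 embryonic stem cells and was joined to an altered Cd8a locus from another mouse line by a crossover. That Cd8a locus was first made in an embryonic stem cell line of strain 129. Strain, age and the altered loci changed together and cannot be told apart in this comparison. Neither group was given a treatment in the labels. B6 CD8 and FlipFlop CD8 T cells were also sorted from LN and are used below where they are named, and the comparison between those 2 groups shares no library with the CD4 comparison.

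CD4 and CD8 are coreceptors that help T cell receptors (TCRs) on thymocytes to recognise MHC class II and class I molecules. In wild-type mice CD4 T cells become helper cells under the transcription factor ThPOK, encoded by Zbtb7b, and CD8 T cells become cytotoxic cells under RUNX3. Helper cells act through CD40L and cytokines and also give rise to regulatory and follicular helper cells, whereas cytotoxic cells kill targets with perforin and granzymes. The question for this comparison is which genes differ between cells that carry the same surface coreceptor encoded by different loci.

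The 6 libraries held about 26600000 to 33100000 reads on listed genes, and a library listed at 0 allows an expected count of up to 3 reads, which corresponded to 0.0919 to 0.113 CPM. This floor covers counting error only. On the log2(CPM + 0.5) scale the root mean square difference between a B6 CD4 and a FlipFlop CD4 library averaged 0.691 over 9 pairs, against 0.346 among B6 CD4 libraries and 0.288 among FlipFlop CD4 libraries. The first principal component of the 6 libraries held 74.9% of the variance and separated the groups. B6 CD4 replicate 1 stood apart from replicates 2 and 3 on the second component, and without it 73 genes rose and 92 fell by the strict rule given below, against 73 and 89 with it. The labels do not say whether the replicates came from separate mice, so p-values measure the spread between these libraries, which may be technical.

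Both groups carried the T cell markers. The 10 T cell markers, among them the CD3 chains and the constant regions of the TCR, summed to 6365 to 7924 CPM in B6 CD4 libraries and to 5994 to 6480 CPM in FlipFlop CD4 libraries. Of these 10 genes 1 rose, Thy1, and 4 fell, among them Cd28 and Trac, or 2 without B6 CD4 replicate 1 or FlipFlop CD4 replicate 2 or 3. Lists of other cell types moved in both directions. Of 14 B cell markers tested 10 fell and 1 rose, and their sum was 812 to 883 CPM in B6 CD4 and 661 to 776 CPM in FlipFlop CD4 libraries. Most of that sum was Ighm, at 503 ± 35.4 CPM in B6 CD4 libraries and 531 ± 21 CPM in FlipFlop CD4 libraries, which did not pass the test. The 8 myeloid markers tested summed to 92.5 to 112 CPM in B6 CD4 and to 57.8 to 73.5 CPM in FlipFlop CD4 libraries, and 6 of them fell. Of 4 red blood cell markers 3 fell, from sums of 22.1 to 28.8 CPM to 6.67 to 14.2 CPM. Lists of γδ T cells, NKT cells and thymocytes had 3 tested markers each, and all of these fell. The γδ count was 1 of 3 without B6 CD4 replicate 2 or FlipFlop CD4 replicate 3, and the call of its member Trdc was also lost without B6 CD4 replicate 1 or FlipFlop CD4 replicate 1 (adjusted p = 0.0873 and 0.078). With the 6 CD4 libraries alone Trdc was not called either (adjusted p = 0.0992). The summed level of 3 tested dendritic cell markers was higher, at 81.3 to 101 CPM in B6 CD4 and at 313 to 430 CPM in FlipFlop CD4 libraries. It rested on Ccr9, which T cells also express and which rose, while Bst2 did not pass the test (log2 difference 0.22 ± 0.25, adjusted p = 0.554), Ciita fell (log2 difference -0.68 ± 0.21, adjusted p = 0.0301) and the defining markers Itgax, Flt3, Zbtb46 and Xcr1 did not pass the filter. The call of Ciita was lost without B6 CD4 replicate 3 or FlipFlop CD4 replicate 1 or 3 (adjusted p = 0.0967, 0.0817 and 0.0979). It was also lost with the 6 CD4 libraries alone (adjusted p = 0.0794). The sum of 5 NK cell markers was also higher, at 15.3 to 20.2 CPM and 50.9 to 99.7 CPM, and most of it in FlipFlop CD4 libraries was Eomes. The 1 tested marker of stromal and endothelial cells, Pecam1, did not pass the test (log2 difference -0.15 ± 0.07, adjusted p = 0.119). The part of these cells in the differences described below was not tested. In bulk libraries, fewer cells of one type and less RNA per cell cannot be told apart.

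Of the 11117 genes tested, 1440 rose in FlipFlop CD4 relative to B6 CD4 T cells (13.0% of genes tested) and 1658 fell (14.9%) at an adjusted p under 0.05, 27.9% of genes tested in either direction. These shares of risen and fallen genes are the background for the counts of gene lists below. Fitted on the 6 CD4 libraries alone, 870 rose. Adjusted p-values throughout are those of limma on log2(CPM + 0.5) with Benjamini-Hochberg adjustment over all genes tested. Differences are given as FlipFlop minus B6 on that log2 scale, and they understate the change of genes at low CPM. A value after ± is the SD of 3 libraries for a mean in CPM and the SE for a log2 difference. Many of these differences were small, and 1608 of the 3098 called genes changed by less than 1.5-fold. Changes of more than 2-fold were found for 258 called genes that rose and 485 that fell. A stricter rule, a p-value under 0.0001 with a change of more than 5-fold, gave 73 genes that rose (0.657%) and 89 that fell (0.801%), hereafter called large. For each of the 162 large genes, no FlipFlop CD4 value lay within the range of the 3 B6 CD4 libraries. The rule was applied to these same libraries, which makes that outcome nearly certain, so it is no separate support. Among all genes tested, 40.2% did not overlap. The number of large falls rested on the pseudocount, since it was 164 with a pseudocount of 0.1 and 54 with a pseudocount of 1.

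**Figure D1:**
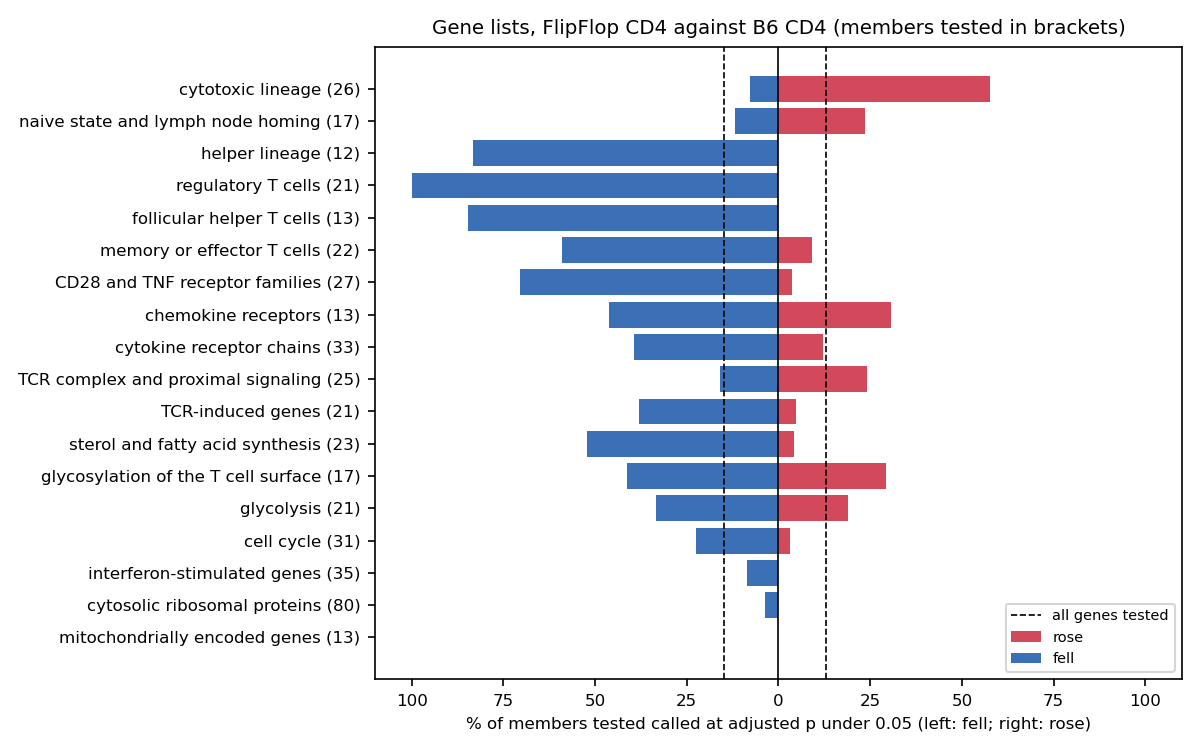
Bars give the percentage of tested members of each gene list that fell (left) or rose (right) in FlipFlop CD4 relative to B6 CD4 T cells at an adjusted p under 0.05, with the number of members tested in brackets, and dashed lines mark the same percentages over all genes tested (14.9% fell and 13.0% rose). All 21 regulatory T cell genes and 10 of 12 helper genes fell, and 15 of 26 cytotoxic genes rose.

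Most helper genes fell. Of the list's 12 tested members, 10 fell, 4 of them by the large rule, and none rose, with a median difference of -1.17 against 0.00 over all genes tested. Zbtb7b (ENSMUSG00000028042.15, chr3:89377644-89394776), which encodes ThPOK, was measured at 203, 193 and 192 CPM in the 3 B6 CD4 libraries and at 1.87, 2.21 and 2.79 CPM in the 3 FlipFlop CD4 libraries. Every B6 CD4 library was thus far above every FlipFlop CD4 library (log2 difference -6.15 ± 0.14, adjusted p = 3.72e-11). Cd40lg, the ligand through which helper cells activate B cells, was at 72.7, 77.9 and 74.4 CPM in B6 CD4 and at 2.82, 3.59 and 2.38 CPM in FlipFlop CD4 libraries (log2 difference -4.47 ± 0.17, adjusted p = 3.02e-09). The TNF receptor family member Tnfrsf4, encoding OX40, fell from 56.6 ± 5.87 CPM to 2.0 ± 0.315 CPM (log2 difference -4.51 ± 0.11, adjusted p = 5.31e-11), and the chemokine receptor Ccr4 fell from 33.9 ± 8.87 CPM to 3.22 ± 1.09 CPM (log2 difference -3.22 ± 0.24, adjusted p = 9.72e-07).

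Other helper genes moved less. Gata3, a transcription factor of T cells with a role in helper differentiation, was at 49.9, 49.1 and 45.9 CPM in B6 CD4 and at 26, 29.9 and 28.1 CPM in FlipFlop CD4 libraries. These groups did not overlap, but the fall was smaller than 2-fold (log2 difference -0.78 ± 0.08, adjusted p = 2.18e-05). Cd28, the main costimulatory receptor, fell from 340.1 ± 76.9 CPM to 150.4 ± 16.7 CPM (log2 difference -1.15 ± 0.15, adjusted p = 8.64e-05), and Cd5, a surface regulator of TCR signaling, fell from 518 ± 57.3 CPM to 217 ± 4.72 CPM (log2 difference -1.25 ± 0.08, adjusted p = 2.57e-07). Il6ra (log2 difference -0.27 ± 0.13, adjusted p = 0.131) and Rora (log2 difference -0.26 ± 0.26, adjusted p = 0.497) did not pass the test.

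Transcripts of the coreceptor genes themselves were split. Cd4 (chr6:124864692-124888221) was at 961, 1090.3 and 1016 CPM in B6 CD4 and at 719, 652 and 637 CPM in FlipFlop CD4 libraries. The groups did not overlap, but the difference (log2 difference -0.61 ± 0.24, adjusted p = 0.0815) missed the threshold when the 12 libraries shared one estimate of the spread, and it passed with the 6 CD4 libraries alone (adjusted p = 0.00361), with a pseudocount of 1 (adjusted p = 0.0334) and without B6 CD8 replicate 1 or 2 (adjusted p = 0.0129 and 0.00506). Cd8b1 (chr6:71322788-71337494), the CD8 beta chain, was at 28.1, 20.7 and 22.7 CPM in B6 CD4 and at 1962, 1887 and 1639 CPM in FlipFlop CD4 libraries, which made it the protein-coding gene with the largest rise among genes of at least 10 CPM (log2 difference 6.24 ± 0.11, adjusted p = 6.59e-12). Its mean in FlipFlop CD4 T cells was close to the 1885 ± 43.2 CPM of B6 CD8 T cells. Cd8a did not pass the filter in the CD4 libraries, where its mean was 0.946 ± 0.596 CPM for B6 and 0.921 ± 0.0595 CPM for FlipFlop mice, against 1489 ± 15.3 CPM in B6 CD8 T cells. The table does not separate reads of the altered loci from reads of the native genes of the same name.

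The cytotoxic list moved the other way. Of 26 tested members, 15 rose and 2 fell, or 1 without B6 CD4 replicate 3 or FlipFlop CD4 replicate 2, with a median of 1.05. Runx3 was at 55.6, 67.7 and 68.4 CPM in B6 CD4 and at 129, 139.6 and 145 CPM in FlipFlop CD4 libraries, about a 2-fold rise (log2 difference 1.11 ± 0.11, adjusted p = 1.35e-05). Eomes, a T-box transcription factor of cytotoxic cells, was at 6.5, 6.65 and 8.18 CPM and 42.2, 60.7 and 91.8 CPM (log2 difference 3.04 ± 0.32, adjusted p = 1.73e-05). Its FlipFlop CD4 libraries were the more widely spread, although the lowest of them was several times the highest B6 CD4 library. Prf1, encoding perforin, rose from 52.7, 61 and 66.3 CPM to 204, 229 and 206 CPM (log2 difference 1.82 ± 0.15, adjusted p = 1.81e-06). Nkg7, a protein of cytotoxic granules, rose from 7.48, 6.71 and 20.6 CPM to 296, 297 and 293 CPM (log2 difference 4.79 ± 0.55, adjusted p = 3.92e-05), so that the FlipFlop CD4 libraries lay within a narrow band.

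Crtam, an adhesion receptor of activated cytotoxic cells, rose from 6.47 ± 0.862 CPM to 61.8 ± 3.33 CPM (log2 difference 3.17 ± 0.14, adjusted p = 9.02e-09), and Klrd1, encoding the NK receptor CD94, rose from 5.66 ± 1.03 CPM to 49.3 ± 6.89 CPM (log2 difference 3.02 ± 0.16, adjusted p = 4.33e-08). The granule genes did not move together. Gzmb (log2 difference -1.06 ± 0.45, adjusted p = 0.0968), Gzma (log2 difference 0.71 ± 0.46, adjusted p = 0.268) and Gzmk (log2 difference -0.43 ± 0.63, adjusted p = 0.65) did not pass the test, and all were under 5 CPM on average in both groups, as was Gzmm (log2 difference 0.86 ± 0.85, adjusted p = 0.487). Fasl, the death ligand, was the cytotoxic list member that fell most, from 7.66 ± 0.643 CPM to 0.912 ± 0.151 CPM (log2 difference -2.53 ± 0.17, adjusted p = 3.15e-07). Tbx21, encoding T-bet, was at 6.26 ± 4.45 CPM and 7.98 ± 2.23 CPM and did not pass the test. Of 5 tested NK cell markers 1 rose, Eomes, which is also on the cytotoxic list, and 2 fell, Tyrobp and Klrb1c. The call of Klrb1c was lost without B6 CD4 replicate 2 (adjusted p = 0.0531).

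**Figure D2:**
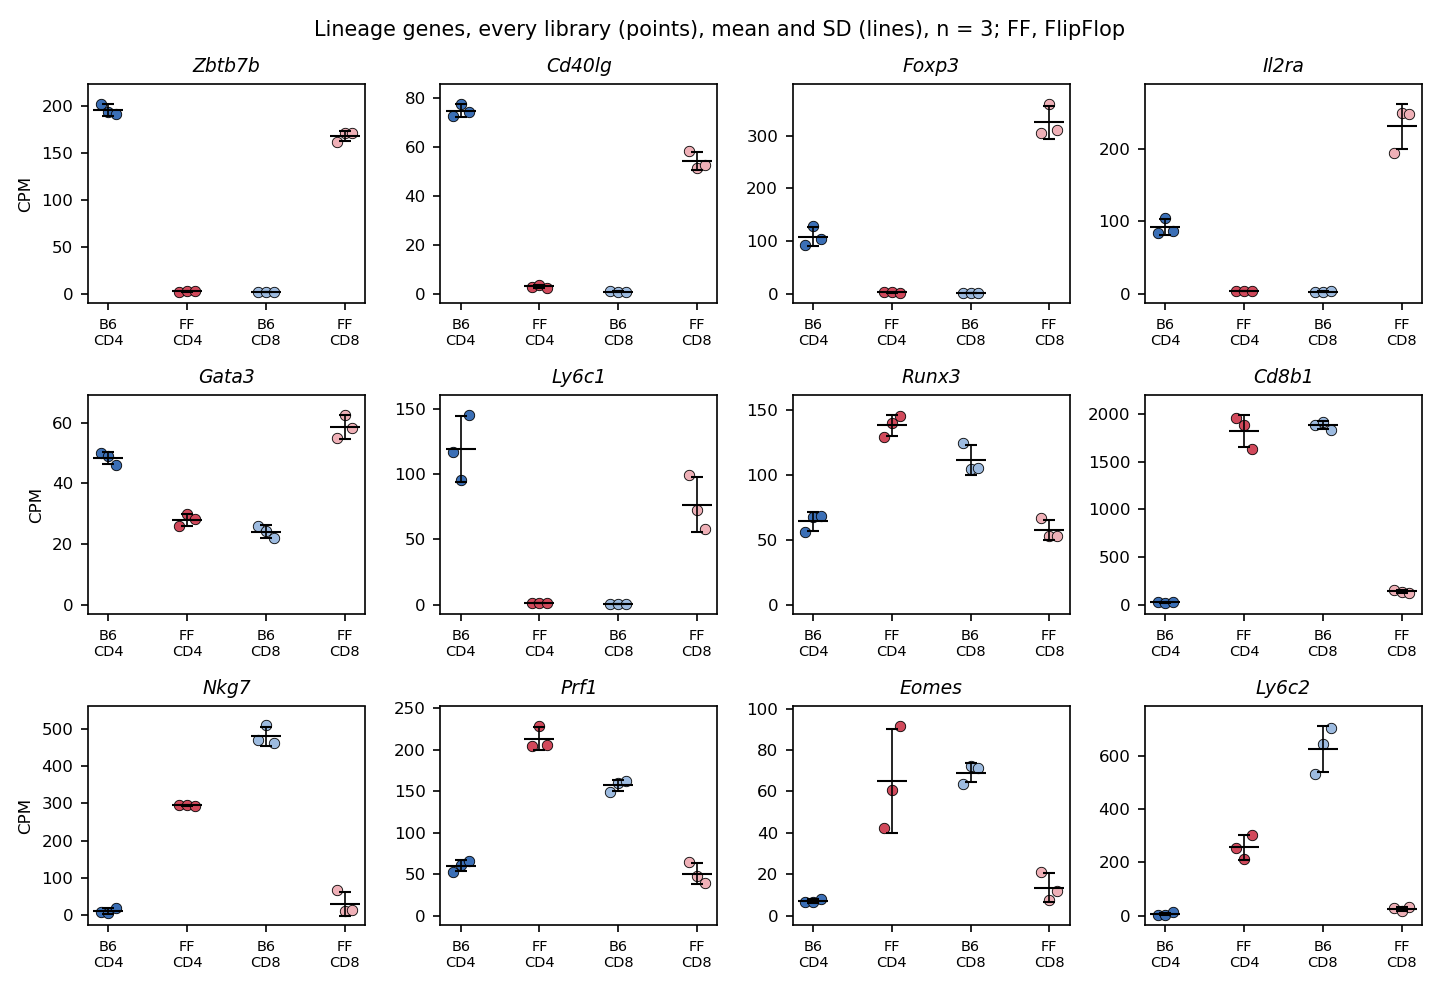
Each panel plots the CPM of one gene on a linear axis in the 12 libraries, with points for libraries and lines for the mean and SD of 3 replicates. Zbtb7b, Cd40lg, Foxp3, Il2ra, Gata3 and Ly6c1 lie higher in B6 CD4 than in FlipFlop CD4 libraries, and Runx3, Cd8b1, Nkg7, Prf1, Eomes and Ly6c2 lie lower.

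To show the promoter letters of genes on both sides of this comparison, 4 windows of 300 bases were read from RefSeq on GRCm38.p6, each running from 250 bases before to 50 bases after a start site. Capitals mark the letters TGTGGT or TGCGGT on either strand, the core that RUNX proteins are known to bind. Zbtb7b and Il2ra fell in FlipFlop CD4 T cells, and Nkg7 and Prf1 rose.
Zbtb7b, second listed start, chr3:89387622-89387921, minus strand: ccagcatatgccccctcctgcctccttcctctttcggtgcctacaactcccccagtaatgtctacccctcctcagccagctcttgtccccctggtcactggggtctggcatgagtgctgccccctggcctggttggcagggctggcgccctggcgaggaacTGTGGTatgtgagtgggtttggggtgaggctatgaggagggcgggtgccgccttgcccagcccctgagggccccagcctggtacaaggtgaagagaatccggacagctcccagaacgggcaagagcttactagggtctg
Il2ra, chr2:11642542-11642841, plus strand: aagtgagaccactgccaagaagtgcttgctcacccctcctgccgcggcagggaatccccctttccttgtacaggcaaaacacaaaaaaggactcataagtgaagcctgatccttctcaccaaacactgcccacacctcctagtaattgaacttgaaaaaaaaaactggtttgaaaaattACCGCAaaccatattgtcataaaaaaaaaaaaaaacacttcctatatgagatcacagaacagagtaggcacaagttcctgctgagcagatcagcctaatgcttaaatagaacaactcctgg
Nkg7, chr7:43436888-43437187, plus strand: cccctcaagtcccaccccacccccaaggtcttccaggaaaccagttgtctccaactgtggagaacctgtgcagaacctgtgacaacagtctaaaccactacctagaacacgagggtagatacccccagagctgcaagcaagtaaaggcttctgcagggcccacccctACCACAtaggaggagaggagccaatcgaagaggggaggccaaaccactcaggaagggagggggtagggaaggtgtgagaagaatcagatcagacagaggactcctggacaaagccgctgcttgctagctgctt
Prf1, chr10:61297586-61297885, plus strand: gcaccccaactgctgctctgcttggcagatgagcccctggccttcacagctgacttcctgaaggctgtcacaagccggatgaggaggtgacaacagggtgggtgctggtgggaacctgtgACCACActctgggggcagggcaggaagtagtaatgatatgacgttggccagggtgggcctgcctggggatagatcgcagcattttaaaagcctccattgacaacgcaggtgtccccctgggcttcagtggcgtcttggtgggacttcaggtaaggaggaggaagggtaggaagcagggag
These 4 windows were chosen because each held 1 such match. Of 12 windows read for 9 genes, 7 held a match, in genes that rose as in genes that fell, and 5 held none, namely the first listed start of Zbtb7b, both starts of Foxp3 and those of Eng and Slc6a19. Among the 7, both windows of Ly6c2 overlap and hold the same match. Among all 32851 promoter windows of RefSeq 22.4% held at least 1 match, and among the windows of genes tested 21.3% did. Of the large genes that moved the opposite way in CD8 T cells, 29 of the 41 that rose had 35 windows, 10 of them with a match (28.6%), and 68 of the 82 that fell had 87 windows, 16 of them with a match (18.4%). A match describes these letters only, and no binding was measured.

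Regulatory T cell genes fell without exception among those tested. All 21 tested members fell, 12 of them by the large rule, with a median difference of -2.62. Foxp3 (chrX:7573644-7595245), the defining transcription factor of regulatory T cells, was at 93.1, 128 and 103 CPM in B6 CD4 and at 2.3, 2.07 and 1.6 CPM in FlipFlop CD4 libraries (log2 difference -5.45 ± 0.20, adjusted p = 2.13e-09). Il2ra, the high-affinity chain of the IL-2 receptor, was at 84.3, 105 and 87.2 CPM and 3.38, 3.88 and 3.31 CPM (log2 difference -4.52 ± 0.17, adjusted p = 3.02e-09). Lrrc32, which holds latent TGF-β at the surface of regulatory cells, fell from 28.3 ± 2.32 CPM to 0.252 ± 0.15 CPM (log2 difference -5.27 ± 0.16, adjusted p = 3.46e-10). The smallest falls of the list were those of Cd83 (log2 difference -0.80 ± 0.12, adjusted p = 0.000281), Tnfrsf18 (log2 difference -0.93 ± 0.10, adjusted p = 1.47e-05) and Nt5e (log2 difference -0.98 ± 0.15, adjusted p = 0.000397), named here after their values were seen, which other T cells also express. Il10 did not pass the filter.

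Genes of follicular helper cells, which support antibody responses in B cell follicles, also fell. Of 13 tested members 11 fell and none rose, with a median of -1.18. Maf, a transcription factor of these cells, was at 33.7, 53.1 and 47.6 CPM in B6 CD4 and at 3.12, 2.65 and 3.72 CPM in FlipFlop CD4 libraries (log2 difference -3.61 ± 0.19, adjusted p = 4.47e-08). The cytokine gene Il21 fell from 5.44 ± 1.58 CPM to 0.236 ± 0.0584 CPM (log2 difference -2.98 ± 0.23, adjusted p = 1.58e-06), the transcription cofactor Tox2 fell from 13.6 ± 4.29 CPM to 0.638 ± 0.0412 CPM (log2 difference -3.59 ± 0.18, adjusted p = 3.61e-08), and Pdcd1, encoding PD-1, fell from 28.6 ± 5.36 CPM to 4.18 ± 1.18 CPM (log2 difference -2.65 ± 0.23, adjusted p = 3.1e-06). Pou2af1 (log2 difference 0.00 ± 0.10, adjusted p = 0.983) and Slamf6 (log2 difference -0.06 ± 0.07, adjusted p = 0.535) did not pass the test. At an unadjusted p under 0.05 limma gave 0 rises in the helper, regulatory and follicular helper lists. Some genes stand on several of these lists, such as Tnfrsf4 and Tigit, so their counts are not independent.

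Memory or effector genes fell more often than they rose. Of 22 tested members 13 fell and 2 rose, with a median of -1.12, and 1 rose without B6 CD4 replicate 1 or FlipFlop CD4 replicate 1 or 2. Klrg1, a receptor of differentiated effector cells, fell from 6.55 ± 1.52 CPM to 0.257 ± 0.32 CPM (log2 difference -3.27 ± 0.41, adjusted p = 7.09e-05). S100a4 fell from 42.1 ± 0.211 CPM to 6.84 ± 1.88 CPM (log2 difference -2.57 ± 0.24, adjusted p = 8.16e-06), and the chemokine receptor Ccr2 fell from 14.2 ± 5.64 CPM to 1.45 ± 0.434 CPM (log2 difference -2.85 ± 0.29, adjusted p = 1.26e-05). Cxcr6, a receptor of tissue-homing lymphocytes, rose from 24.5 ± 9.89 CPM to 76.2 ± 7.75 CPM (log2 difference 1.7 ± 0.24, adjusted p = 0.000223).

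Of 17 tested naive and LN homing genes 4 rose and 2 fell, with a median of 0.02. The shares were 23.5% and 11.8%, against 13.0% and 14.9% of all genes tested. The count of rises was 1 without FlipFlop CD4 replicate 3 and 2 without B6 CD4 replicate 2, B6 CD8 replicate 2 or FlipFlop CD4 replicate 1 or 2. Ccr7, the receptor that brings T cells into LN, was at 758 ± 57.7 CPM and 732 ± 62.7 CPM (log2 difference -0.05 ± 0.08, adjusted p = 0.688), and Tcf7, a transcription factor of naive T cells, was at 1473 ± 69.7 CPM and 1410.0 ± 53.2 CPM (log2 difference -0.06 ± 0.07, adjusted p = 0.553). Dapl1 rose from 56.6 ± 8.95 CPM to 144 ± 34.6 CPM (log2 difference 1.32 ± 0.16, adjusted p = 7.09e-05), and Igfbp4 fell from 1227 ± 207 CPM to 439.7 ± 156 CPM (log2 difference -1.53 ± 0.24, adjusted p = 0.000401).

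The Ly6 surface proteins held the pair that exchanged places. Ly6c1 was at 117, 95.5 and 146 CPM in B6 CD4 and at 1.18, 0.933 and 1.29 CPM in FlipFlop CD4 libraries (log2 difference -6.18 ± 0.25, adjusted p = 4.43e-09), the largest fall of all genes of at least 10 CPM. Its neighbour Ly6c2 was at 3.76, 3.22 and 11.4 CPM and 253, 211 and 302 CPM (log2 difference 5.46 ± 0.36, adjusted p = 2.99e-07). The 2 genes are close copies, so the authors' counting could have divided their reads unevenly, and the split between them is uncertain. Ly6a, encoding Sca-1, was at 204, 202 and 422 CPM in B6 CD4 and at 67, 15.3 and 21.8 CPM in FlipFlop CD4 libraries, and it fell (log2 difference -3.17 ± 0.63, adjusted p = 0.0024).

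Most costimulatory receptors and ligands tested fell. Of 27 tested members of the CD28 and TNF receptor families 19 fell and 1 rose, or 2 without B6 CD4 replicate 1, with a median of -0.86. Tigit, an inhibitory receptor, fell from 24.2 ± 3.0 CPM to 1.81 ± 0.219 CPM (log2 difference -3.42 ± 0.21, adjusted p = 1.78e-07), and Tnfsf11, encoding RANKL, fell from 15.1 ± 3.41 CPM to 1.41 ± 0.425 CPM (log2 difference -3.03 ± 0.20, adjusted p = 2.92e-07). The gene that rose was Cd226, an adhesion receptor that competes with TIGIT for ligand, from 44.7 ± 11.4 CPM to 170.4 ± 31.1 CPM (log2 difference 1.93 ± 0.18, adjusted p = 7.75e-06). Cd27 was at 238 ± 9.18 CPM and 263 ± 2.98 CPM and did not pass the test.

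Chemokine receptors split into both directions. Of 13 tested, 6 fell and 4 rose. Ccr9, a receptor for gut homing, was at 11.8, 17.2 and 12 CPM in B6 CD4 and at 342, 251 and 245 CPM in FlipFlop CD4 libraries (log2 difference 4.31 ± 0.15, adjusted p = 1.42e-09). Cxcr4 rose from 59.5 ± 26.9 CPM to 136 ± 34.6 CPM (log2 difference 1.25 ± 0.31, adjusted p = 0.0101). Ccr6 and Ccr8, which mark subsets of helper and regulatory cells, fell from 11 ± 3.64 CPM to 1.5 ± 0.465 CPM (log2 difference -2.49 ± 0.25, adjusted p = 1.04e-05) and from 9.9 ± 1.69 CPM to 0.603 ± 0.231 CPM (log2 difference -3.24 ± 0.18, adjusted p = 7.85e-08). Cxcr2, a receptor best known from neutrophils, was near the floor at 0.0376, 0.0968 and 0.153 CPM in B6 CD4 and at 1.31, 3.44 and 1.56 CPM in FlipFlop CD4 libraries (log2 difference 2.05 ± 0.29, adjusted p = 0.000223).

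Among 33 tested cytokine receptor chains 13 fell and 4 rose. Il1rl1, encoding the IL-33 receptor, fell from 7.17 ± 3.42 CPM to 0.0927 ± 0.0334 CPM (log2 difference -3.57 ± 0.29, adjusted p = 2.34e-06), and Il9r fell from 8.84 ± 2.02 CPM to 1.17 ± 0.152 CPM (log2 difference -2.47 ± 0.17, adjusted p = 6.01e-07). Il10rb, a shared chain of IL-10 family receptors, rose from 45.1 ± 2.64 CPM to 72.8 ± 0.065 CPM (log2 difference 0.69 ± 0.08, adjusted p = 4.81e-05). Il7r, the receptor chain for the survival cytokine IL-7, was at 397 ± 91.3 CPM and 351 ± 9.32 CPM (log2 difference -0.15 ± 0.14, adjusted p = 0.45). Of 19 STAT, JAK and SOCS genes 4 rose (21.1%, against 13.0% of all genes tested) and 2 fell (10.5%, against 14.9%). Stat4, which carries IL-12 signals, rose from 91.8 ± 4.15 CPM to 159 ± 8.25 CPM (log2 difference 0.79 ± 0.08, adjusted p = 9.6e-06), and the feedback inhibitor Socs2 fell from 7.0 ± 0.758 CPM to 0.286 ± 0.0875 CPM (log2 difference -3.25 ± 0.13, adjusted p = 4.69e-09).

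**Figure D3:**
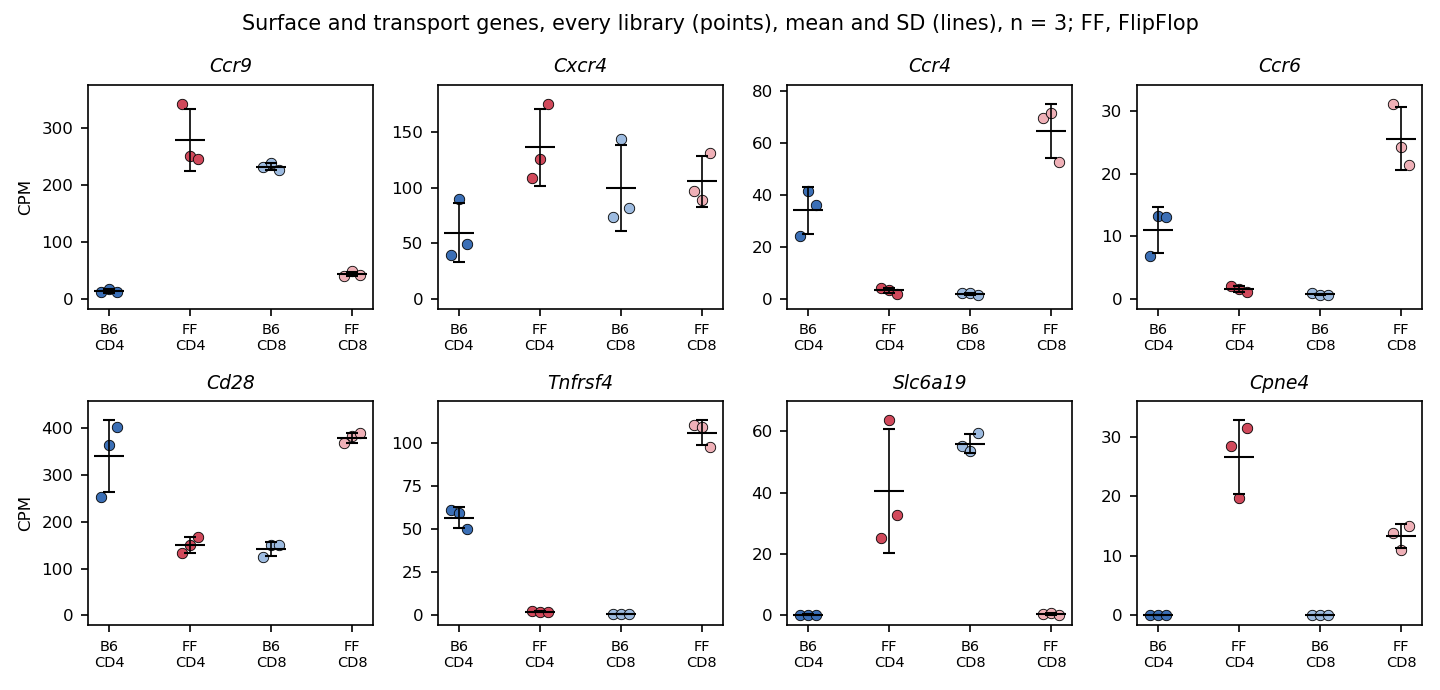
Each panel plots the CPM of one surface or transport gene on a linear axis in the 12 libraries, with points for libraries and lines for the mean and SD of 3 replicates. Ccr9, Cxcr4, Slc6a19 and Cpne4 lie higher in FlipFlop CD4 than in B6 CD4 libraries, and Ccr4, Ccr6, Cd28 and Tnfrsf4 lie lower.

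TCR components and proximal signaling genes changed little in size. Of 25 tested members 6 rose and 4 fell, with a median of 0.08. That is 24% and 16%, against 13.0% and 14.9% of all genes tested. The count of falls rested on single libraries. It was 0 without FlipFlop CD4 replicate 2, 1 without B6 CD4 replicate 2, and 2 without B6 CD4 replicate 1 or FlipFlop CD4 replicate 1 or 3. Grap2, an adaptor of the LAT complex, rose from 414 ± 60.01 CPM to 609 ± 15.9 CPM (log2 difference 0.57 ± 0.10, adjusted p = 0.00101), and the phosphatase gene Ptpn22 rose from 149.7 ± 5.36 CPM to 229 ± 9.81 CPM (log2 difference 0.61 ± 0.08, adjusted p = 0.000136). Lck, the kinase that coreceptors carry, was at 1078 ± 35.1 CPM and 1108 ± 19.5 CPM (log2 difference 0.04 ± 0.07, adjusted p = 0.727). Of 21 genes that TCR signals induce, 8 fell (38.1%, against 14.9% of all genes tested). The 1 that rose was Myc (log2 difference 0.44 ± 0.08, adjusted p = 0.00138). Nr4a1 fell from 63.1 ± 8.73 CPM to 31.2 ± 1.7 CPM (log2 difference -1.0 ± 0.11, adjusted p = 2.01e-05), Dusp5 fell from 39.4 ± 4.16 CPM to 13.2 ± 2.1 CPM (log2 difference -1.55 ± 0.15, adjusted p = 9.2e-06), and Cd69 did not pass the test (log2 difference 0.13 ± 0.13, adjusted p = 0.507).

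Of 20 MHC class I and peptide transport genes 4 rose, or 2 without FlipFlop CD4 replicate 1, and 2 fell. These shares, 20% and 10%, lay near the 13.0% and 14.9% of all genes tested. H2-T23 fell from 497 ± 70.7 CPM to 309.9 ± 18.3 CPM (log2 difference -0.67 ± 0.12, adjusted p = 0.0014) and Tapbpl rose from 69.99 ± 15.7 CPM to 126 ± 10.9 CPM (log2 difference 0.86 ± 0.15, adjusted p = 0.000979). MHC genes are polymorphic between strains, and reads of near-identical class I genes could be divided among them. B2m, the shared light chain, was at 3781, 3442 and 4257 CPM in B6 CD4 and at 3873, 1618 and 1685 CPM in FlipFlop CD4 libraries and did not pass the test (log2 difference -0.80 ± 0.35, adjusted p = 0.115).

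Glycosyltransferases that shape the T cell surface changed in both directions. Of 17 tested, 7 fell and 5 rose, or 3 without B6 CD4 replicate 2 or FlipFlop CD4 replicate 3. The sialyltransferase St3gal2 fell from 28.6 ± 3.83 CPM to 5.72 ± 0.866 CPM (log2 difference -2.23 ± 0.13, adjusted p = 1.47e-07) and St8sia6 fell from 155 ± 37.6 CPM to 37.5 ± 11.7 CPM (log2 difference -2.04 ± 0.22, adjusted p = 1.97e-05). The sulfotransferase Chst15 rose from 17 ± 1.67 CPM to 54.7 ± 1.23 CPM (log2 difference 1.66 ± 0.08, adjusted p = 2.05e-08). Among 16 integrin subunits 7 fell and 1 rose, or 0 without B6 CD4 replicate 1 or FlipFlop CD4 replicate 1 or 2. Itgb3 was the most abundant of those that fell by more than 2-fold, from 186 ± 10.7 CPM to 55.4 ± 13.3 CPM (log2 difference -1.77 ± 0.14, adjusted p = 1.85e-06). Of 8 GIMAP GTPases, which support lymphocyte survival, 4 fell and 1 rose, Gimap5 (log2 difference 0.60 ± 0.07, adjusted p = 3.05e-05).

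In metabolism, 12 of 23 sterol and fatty acid synthesis genes fell and 1 rose, with a median of -0.41, and 3 rose without B6 CD4 replicate 2 or 3 and 2 without B6 CD8 replicate 1. Cyp51, an enzyme of cholesterol synthesis, fell from 38.5 ± 2.41 CPM to 18.6 ± 1.64 CPM (log2 difference -1.03 ± 0.10, adjusted p = 8.13e-06), whereas Acaca, the first enzyme of fatty acid synthesis, rose from 39.1 ± 8.86 CPM to 62 ± 4.15 CPM (log2 difference 0.68 ± 0.13, adjusted p = 0.00222). Of 21 glycolysis genes 7 fell, or 4 without FlipFlop CD4 replicate 3, and 4 rose. The lactate transporters moved apart, since Slc16a3 fell from 4.93 ± 0.527 CPM to 0.974 ± 0.0793 CPM (log2 difference -1.88 ± 0.15, adjusted p = 1.71e-06) and Slc16a1 rose from 40.6 ± 3.8 CPM to 58.6 ± 6.09 CPM (log2 difference 0.52 ± 0.11, adjusted p = 0.00315). Of 31 cell cycle genes 7 fell and 1 rose, or 2 without FlipFlop CD8 replicate 3. The falls numbered 2, 3 and 4 without FlipFlop CD4 replicate 3, FlipFlop CD4 replicate 2 and B6 CD4 replicate 2, and 11 without FlipFlop CD4 replicate 1. Mki67 was at 12.3 ± 4.73 CPM and 10.6 ± 1.22 CPM (log2 difference -0.13 ± 0.27, adjusted p = 0.749). Of 15 BCL2 family genes 5 fell and 2 rose, among them Bcl2a1d (log2 difference -1.89 ± 0.19, adjusted p = 1.1e-05) and Bid (log2 difference 0.60 ± 0.08, adjusted p = 0.000203).

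Several lists stayed under the background. None of 13 mitochondrially encoded genes passed the test in limma, and the count at an unadjusted p under 0.05 was 0, while 1 rose without B6 CD4 replicate 3. Of 80 ribosomal protein genes 3 fell and none rose, with 1 rise at an unadjusted p under 0.05. Without B6 CD4 replicate 1 the counts were 1 fall and 1 rise, and without FlipFlop CD4 replicate 3 there was 1 fall. Of 35 interferon-stimulated genes 3 fell and none rose, with 2 rises at an unadjusted p under 0.05 and a median of -0.14, and in the fit with the replicate number as a block 5 fell and 5 rose. Its falls numbered 5 without FlipFlop CD4 replicate 3 and 1 without B6 CD4 replicate 1, B6 CD8 replicate 1, FlipFlop CD4 replicate 1 or 2 or FlipFlop CD8 replicate 1, and 1 rose without B6 CD4 replicate 3. The interferon-stimulated gene with the largest difference, Oasl2, was at 14.4, 11.8 and 38.1 CPM in B6 CD4 and at 5.09, 0.181 and 14.1 CPM in FlipFlop CD4 libraries, so that the highest FlipFlop CD4 library overlapped the range of B6 CD4 (log2 difference -2.33 ± 1.12, adjusted p = 0.144).

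Both groups carried CD4, so these differences cannot go with the surface coreceptor. Their direction was read against the CD8 T cells of the same strains, which share no library with the CD4 comparison. Within each strain, CD4 and CD8 libraries of the same replicate number were positively correlated, so both comparisons may share part of their spread. In CD8 T cells the same strain difference was called for 2205 genes that rose (19.8%) and 2631 that fell (23.7%). Of the 3098 genes called in CD4 T cells, 1539 moved the opposite way in CD8 T cells (13.8% of genes tested) and 395 the same way (3.55%). Of the 162 large genes, 123 moved the opposite way, 34 the same way and 5 were not called in CD8 T cells. Across the 11117 genes the strain differences in CD4 and CD8 T cells had a Pearson correlation of -0.445 and a Spearman correlation of -0.232, a description over genes that are not independent. The difference between both strain differences, tested as an interaction, passed for 4229 genes (38.0%).

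The 82 large genes that fell and moved the opposite way had a median difference of -2.73 in CD4 and 3.56 in CD8 T cells. For Zbtb7b the CD8 difference was 6.38 ± 0.14, for Foxp3 7.84 ± 0.20, for Cd40lg 5.41 ± 0.17 and for Ly6c1 6.35 ± 0.25. Itih5, a hyaluronan-associated matrix protein, fell from 17.8 ± 3.04 CPM to 0.881 ± 0.104 CPM in CD4 T cells (log2 difference -3.71 ± 0.17, adjusted p = 1.2e-08) and rose in CD8 T cells (3.09 ± 0.17). Foxp3 reached 326 ± 31.1 CPM in FlipFlop CD8 T cells, about 3 times its B6 CD4 level. The 41 that rose and moved the opposite way had medians of 3.27 and -2.65. Among them were Cd8b1 with a CD8 difference of -3.78 ± 0.11, Nkg7 with -4.42 ± 0.55 and Ccr9 with -2.4 ± 0.15.

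The largest rises of this kind also held genes outside the cytotoxic list. Slc6a19, a transporter of neutral amino acids, was at 0.0751, 0.226 and 0.245 CPM in B6 CD4 and at 25.3, 63.5 and 32.6 CPM in FlipFlop CD4 libraries (log2 difference 5.81 ± 0.31, adjusted p = 4.69e-08), with a CD8 difference of -5.89 ± 0.31. Adgrg5, an adhesion G protein-coupled receptor, rose from 0.77 ± 0.316 CPM to 88.1 ± 7.3 CPM (log2 difference 6.15 ± 0.23, adjusted p = 2.74e-09) and fell in CD8 T cells (-4.77 ± 0.23). Eng, the TGF-β coreceptor endoglin, rose from 1.02 ± 0.267 CPM to 55.5 ± 0.739 CPM (log2 difference 5.22 ± 0.23, adjusted p = 9.02e-09) and fell in CD8 T cells (-3.02 ± 0.23). Of the 123 genes that moved the opposite way, 118 were protein coding and none was a pseudogene.

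**Figure D4:**
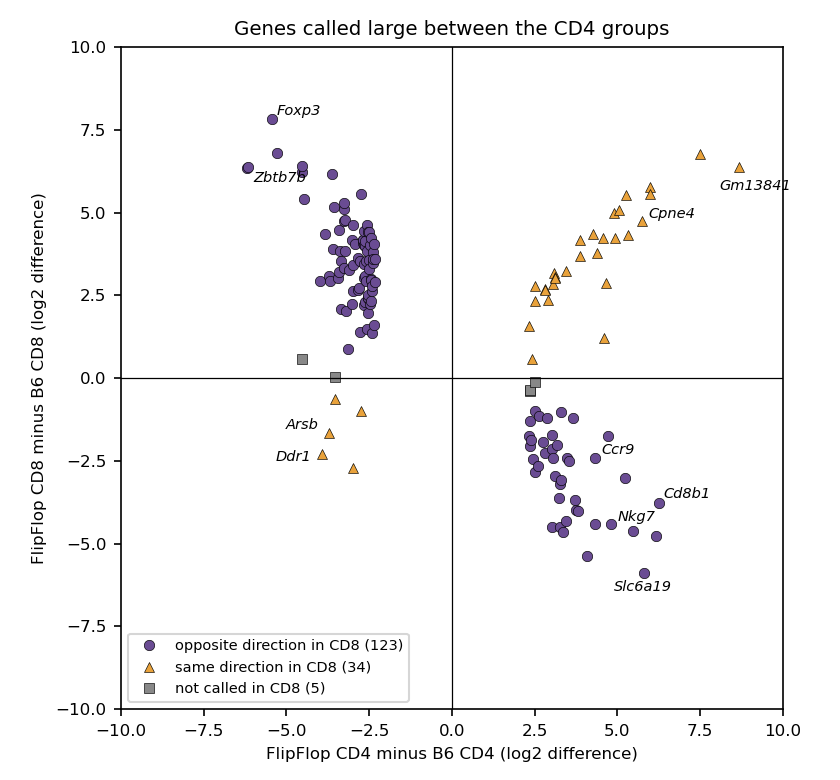
Points are the 162 large genes, with the FlipFlop minus B6 log2 difference in CD4 T cells on the horizontal axis and in CD8 T cells on the vertical axis. The 123 genes of opposite direction lie in the upper left and lower right, and the 34 genes of the same direction in the other corners, most of them rises.

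The 34 large genes that moved the same way in both comparisons were 29 up and 5 down. Of these, 18 were annotated as pseudogenes and 13 as protein coding, against 0 and 118 of the 123 of opposite direction. The share of pseudogenes among all genes tested was not counted. The 29 that rose had medians of 4.27 in CD4 and 3.68 in CD8 T cells. The 2 largest rises of the whole comparison were pseudogenes. Gm13841 (ENSMUSG00000083833.4, chr5:115801677-115802159) was at 0.27, 0.166 and 0.366 CPM in B6 CD4 and at 364, 216 and 385 CPM in FlipFlop CD4 libraries (log2 difference 8.68 ± 0.70, adjusted p = 1.99e-06), and Gm8730 (chr8:102864845-102865798) was at 9.73, 7.8 and 7.32 CPM and 1359, 2462 and 1172 CPM (log2 difference 7.5 ± 0.29, adjusted p = 3.02e-09). Gm9625, the pseudogene with the next largest rise, below the coding genes Cd8b1 and Adgrg5, was at 6.04, 4.83 and 3.67 CPM and 309, 483 and 248 CPM (log2 difference 5.99 ± 0.27, adjusted p = 1.37e-08). For each of these 3 genes every FlipFlop CD4 library was more than 10 times above every B6 CD4 library.

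All 19 pseudogenes called large were compared by sequence with the protein-coding transcripts of GENCODE M21, and 18 matched a gene of the table at 90% identity or more over at least 80% of their length. Gm13841 matched Rpl29 with 3 mismatches in 483 bases and Gm8730 matched Rplp0 with 12 mismatches in 954 bases. The windows of 60 coding bases below hold the most differences of each pair, in capitals, to show how few letters separate the copy from the coding gene.
Rplp0, coding bases 388 to 447: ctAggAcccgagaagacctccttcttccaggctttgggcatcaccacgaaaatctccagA
Gm8730, chr8:102865352-102865411, minus strand: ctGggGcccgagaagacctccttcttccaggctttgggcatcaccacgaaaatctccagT
Rpl29, coding bases 13 to 72: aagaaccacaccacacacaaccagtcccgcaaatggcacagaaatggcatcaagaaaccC
Gm13841, chr5:115802088-115802147, minus strand: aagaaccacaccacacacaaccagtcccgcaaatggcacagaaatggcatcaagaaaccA
Rplp0 and its copy differed at 3 of these 60 bases, and Rpl29 and its copy at 1. The authors' counting could have moved reads between such copies, so the values of either member of a pair are uncertain.

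The 18 pseudogenes that rose matched 13 coding genes, of which 8 fell, 1 rose and 4 did not pass the test. Those that fell were Rplp0, Rpl29, Rnps1, Hdac1, Atp6v0c, Rps2, Pcna and Wtap. The count of falls was 5 without B6 CD4 replicate 1 or FlipFlop CD4 replicate 3 and 6 to 8 without any other library, and the calls lost were those of Rplp0, Rpl29 and Pcna. For Pcna (adjusted p = 0.0176) these were the fits without B6 CD4 replicate 1 or FlipFlop CD4 replicate 2 or 3 (adjusted p = 0.0592, 0.0644 and 0.0764). Rplp0, a protein of the ribosomal stalk, was at 8142, 6748 and 6647 CPM in B6 CD4 and at 5763, 3383 and 4661 CPM in FlipFlop CD4 libraries (log2 difference -0.67 ± 0.21, adjusted p = 0.0331), a fall that was not called without B6 CD4 replicate 1 or 2 or FlipFlop CD4 replicate 2 or 3 (adjusted p = 0.0929, 0.054, 0.141 and 0.0668). Rplp0 was also not called with the 6 CD4 libraries alone (adjusted p = 0.0623). Together with its 4 large pseudogenes it came to 92.3% of the B6 CD4 sum. Rpl29, another ribosomal protein, was at 1309, 986 and 994 CPM and 60.3, 591 and 54.5 CPM (log2 difference -3.11 ± 0.91, adjusted p = 0.0228), so that FlipFlop CD4 replicate 2 stood about 10 times above the other 2. Its fall was not called without B6 CD4 replicate 1 or FlipFlop CD4 replicate 1 or 3 (adjusted p = 0.0578, 0.0805 and 0.0944). In FlipFlop CD8 T cells Rpl29 was at 48.5, 441 and 42.3 CPM, with replicate 2 highest, and Gm13841 was at 19.1, 31.3 and 273 CPM. The sum of both was 67.6, 472 and 315 CPM in FlipFlop CD8 libraries, all below the 1124 to 1155 CPM of B6 CD8 libraries. With Gm13841 added, Rpl29 came to 50.8% of B6 CD4.

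Gm9825 and its match Rnps1, an RNA-binding protein of the splicing machinery, showed tighter values. Gm9825 was at 0.19, 0.0733 and 0.105 CPM in B6 CD4 and at 41.2, 39.1 and 35.9 CPM in FlipFlop CD4 libraries (log2 difference 5.98 ± 0.11, adjusted p = 6.59e-12), Rnps1 was at 136, 114 and 109 CPM and 71.9, 68.2 and 71.1 CPM (log2 difference -0.76 ± 0.08, adjusted p = 2.32e-05), and their sum was 91.1% of B6. Gm4864, a match of the histone deacetylase gene Hdac1, was listed at 0 in all 3 B6 CD4 libraries and at 17.7, 17.2 and 20.7 CPM in FlipFlop CD4 libraries, a mean at least 164-fold higher than the highest floor of 3 reads in a B6 CD4 library. Hdac1 with its 2 large pseudogenes came to 79.4% of B6. Glo1 rose itself (log2 difference 0.92 ± 0.17, adjusted p = 0.00181) beside its pseudogene Gm13443 (log2 difference 4.56 ± 0.28, adjusted p = 1.96e-07), and their sum was 212% of B6. H2-T22, Tma7, Tent2 and Rpl11 did not pass the test beside pseudogenes that rose, and H2-T22 with H2-T10 came to 148% of B6.

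**Figure D5:**
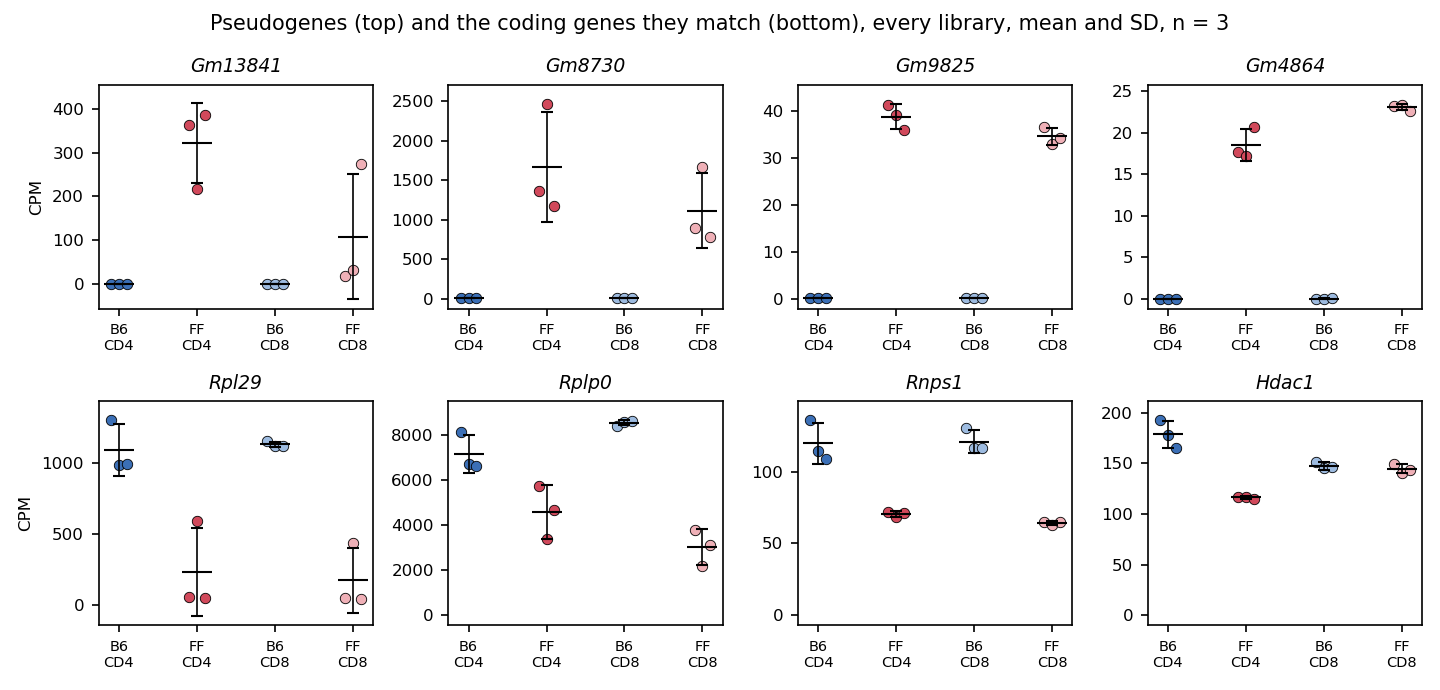
The top row plots the CPM of 4 pseudogenes and the bottom row that of the coding gene each matches, on linear axes in the 12 libraries, with points for libraries and lines for the mean and SD of 3 replicates. The pseudogenes are higher in FlipFlop than in B6 libraries, although Gm13841 is low in FlipFlop CD8 replicates 1 and 2, and Rpl29, Rplp0 and Rnps1 are lower in FlipFlop than in B6 libraries of both cell types.

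Among the 34 large genes of the same direction, 8 of the 13 protein-coding genes rose and 5 fell. Cpne4, a calcium-dependent membrane-binding protein, was listed at 0 in all 3 B6 CD4 libraries and at 28.5, 19.6 and 31.5 CPM in FlipFlop CD4 libraries, a mean at least 235-fold higher than the highest B6 CD4 floor, and its CD8 difference was 4.74 ± 0.17. Hmga1b, a near copy of Hmga1, was at 0.93, 0.412 and 0.391 CPM and 36.5, 63.6 and 31.4 CPM (log2 difference 5.33 ± 0.33, adjusted p = 2.05e-07). Ddr1, a collagen receptor, fell from 13, 15.3 and 17 CPM to 0.328, 1.01 and 0.372 CPM (log2 difference -3.91 ± 0.22, adjusted p = 9.93e-08), with a CD8 difference of -2.31 ± 0.22. Arsb, a lysosomal sulfatase, fell from 61.7, 92.7 and 84.2 CPM to 5.71, 6.23 and 4.57 CPM (log2 difference -3.73 ± 0.19, adjusted p = 3.87e-08), with a CD8 difference of -1.65 ± 0.19. Nacc2, a transcriptional repressor, fell from 23.4 ± 6.84 CPM to 1.53 ± 0.361 CPM (log2 difference -3.54 ± 0.21, adjusted p = 1.21e-07), with a smaller CD8 difference of -0.63 ± 0.21.

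The FlipFlop CD4 level lay outside both B6 groups for 23 large genes of at least 10 CPM, 18 of them above B6 CD4 and B6 CD8 T cells and 5 below. Being outside meant a difference from B6 CD8 T cells of more than 2-fold in the same direction at an adjusted p under 0.05. The 5 low genes were Ddr1, Arsb, Nacc2, Osbpl3 and Ccr2, and of the 23 genes 11 were pseudogenes. Ccr2 averaged 14.2 ± 5.64 CPM in B6 CD4 T cells and 7.19 ± 1.89 CPM in B6 CD8 T cells, against 1.45 ± 0.434 CPM in FlipFlop CD4 T cells, and Osbpl3, an oxysterol-binding protein, was at 10.4 ± 1.47 CPM, 2.76 ± 0.38 CPM and 0.854 ± 0.261 CPM in the same order. Both moved the opposite way in CD8 T cells, with differences of 2.65 ± 0.29 and 2.24 ± 0.17. Gm4956, an unprocessed pseudogene with 70.3% identity to Gsta4, was at 12.1, 11.1 and 9.83 CPM in B6 CD4 libraries and was listed at 0 in all 3 FlipFlop CD4 libraries, at least 98.8-fold lower when the highest FlipFlop CD4 floor is set against the B6 CD4 mean, and it was not called in CD8 T cells (0.58 ± 0.37).

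Along the chromosomes, the large genes of the same direction were spread over many chromosomes, with 6 of 589 tested genes on chromosome 17 (1.02%), 2 of 264 on chromosome 18 (0.758%) and 4 of 542 on chromosome 6 (0.738%), against 34 of all 11117 (0.306%). Of the 2 tested genes annotated on chromosome Y 1 was among them, Gm47283, which was listed at 0 in all 6 B6 libraries and was at 1.85 to 4.93 CPM in FlipFlop CD4 and 1.82 to 3.95 CPM in FlipFlop CD8 libraries, although the labels give female mice for both groups. Xist, which is transcribed from the inactive X chromosome of females, was at 13.3, 73.2 and 86.7 CPM in B6 CD4 and at 64, 72.5 and 104 CPM in FlipFlop CD4 libraries. The sex of the mice was not tested, and Gm47283 alone does not speak against the labels. Chromosome 6 carries both altered loci, and its 4 genes of the same direction, Smo, Gm7292, Atp6v0c-ps2 and Gm9825, started 95.1, 7.15, 87.1 and 116.9 Mb from the start of Cd4 and 41.6, 46.3, 33.6 and 63.4 Mb from that of Cd8a. The smallest of these distances was the 7.15 Mb between Gm7292 and Cd4. Distances were taken for large genes only, and the length of chromosome carried over with the altered loci was not measured. Whether any of these genes lies on carried-over sequence was therefore not tested. The genes of opposite direction on chromosome 6 included Capg, 1.17 Mb from Cd8a, which is on the regulatory T cell list and fell (log2 difference -2.4 ± 0.15, adjusted p = 2.37e-07), Klrg1, 2.59 Mb from Cd4, and Klrd1, 4.73 Mb from Cd4.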

How the data were processed

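RNA was measured in LN T cells of B6 and FlipFlop mice, sorted by coreceptor into CD4 and CD8 populations. Per the methods, RNA with an integrity number above 9 was made into libraries with a SMARTer low-input kit, sequenced as paired-end reads and aligned to mm10 with STAR, whereas the submitters' processing notes list Trimmomatic, TopHat and mm10. The counting program, annotation, strand setting and filter on low values are not given in the sources used here. The authors deposited 1 table of expression signal, which holds CPM divided by a TMM factor per library, so that its columns sum to 875501 to 1081793. No column was left unused.

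Genes were kept where 3 or more of the 6 CD4 libraries reached 1 CPM (11117, with 1692 left out). Their log2(CPM + 0.5) values over all 12 libraries entered limma 3.58.1 (R 4.3.3), with group means as coefficients, a trended eBayes prior and 8 residual degrees of freedom. Each p was two-sided. The strict rule took its p-value and fold from the study's heat map, and the p under 0.05 of its methods was an alternative. Whole reads could be recovered for 84.8% to 86.4% of low values only, so no test on counts was run. Pseudogenes were matched with blastn 2.17.0. All 12809 identifiers matched GENCODE M21. Promoters were taken from RefSeq on GRCm38.p6. Plots were made in matplotlib 3.10.9 (python 3.11.15). The fit was also run on simulated data, the outcome of which is not given here.

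Deviations from the group means of B6 CD4 and FlipFlop CD4 libraries with the same replicate number correlated at 0.188, 0.105 and 0.319, each over 0.1, and CD4 and CD8 libraries of the same number at 0.186, 0.11 and 0.362 in B6 and 0.457, 0.291 and 0.54 in FlipFlop mice. The numbers could thus pair the libraries. Unlike numbers still reached 0.128 (B6 CD4 replicate 1 with FlipFlop CD4 replicate 2) and 0.169 (B6 CD4 replicate 2 with B6 CD8 replicate 1). The main fit held no replicate term, so the p-values and counts reported from it do not use such a pairing. Fits with a replicate block were run as alternatives. The pairing comes from the data, and the labels do not say what a number shares.

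The members and gene lists were chosen with earlier results of these data known. Genes were named as the 12 largest rises and falls among large genes of at least 10 CPM without overlap, up to 4 risen and 4 fallen members of each list, the lineage genes of the study's text, the 6 largest in each direction that moved alike in CD8 T cells, and the 5 highest and lowest outside both B6 groups. Genes of chromosome 18 were passed over, 1 further gene is not reported here, and list members beyond this rule were named after their values were seen. The alternatives were other pseudocounts, filters, scalings and thresholds, 6 libraries, no trend, 3 kinds of replicate block and each library left out.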

Additional observations from a re-analysis of the deposited data

Results flagged for a closer look

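The strain difference was not the same in CD4 and CD8 T cells. The difference between FlipFlop minus B6 in CD4 T cells and FlipFlop minus B6 in CD8 T cells, tested as an interaction in limma, passed at an adjusted p under 0.05 for 4229 of 11117 genes. It is listed because FlipFlop minus B6 gave unequal effects in both cell types. The study assigns FlipFlop CD4 and B6 CD8 T cells to the cytotoxic lineage. FlipFlop CD8 and B6 CD4 T cells are assigned to the helper lineage. FlipFlop minus B6 is thus cytotoxic minus helper in CD4 T cells and helper minus cytotoxic in CD8 T cells. Leaving out 1 library at a time gave counts of 3691 to 4901. The part of age, of other cells in the sorts or of the altered loci in this count was not tested.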

How the results depend on the processing

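The CD4 comparison was repeated under the alternatives listed above, and of 374 alternative counts of genes 354 stayed within 1.5 times the reported count. With pseudocounts of 0.1 and 1 there were 164 and 54 large falls, of which 150 and 48 moved the opposite way in CD8 T cells, and 9 moved the same way with 0.1. With genes averaging at least 5 CPM, large falls numbered 50, of them 45 of opposite direction, and large rises of the same direction numbered 19, as low genes were not tested. A 2-fold limit gave 229 large rises (151 opposite, 52 same) and 404 large falls (364 opposite, 25 same). With 5-fold and a p under 0.05, adjusted or not, 8 large falls had the same direction. At an adjusted p under 0.01, 820 genes rose and 1080 fell, and with 6 libraries 870 rose, the cause of which was not tested.

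The replicate block moved no count of large genes by more than 1.5 times (73 rises and 90 falls, 162 genes shared with the fit without it) and gave 3618 called genes, 3070 of them shared. It changed the call of Hk1 (adjusted p = 0.0511) and no other named gene, whereas the block by strain and number lost 3 such calls (Hk1, Lef1 and Ubash3a) and the block on 6 libraries lost 15 and gained that of Cd4. The block by strain and number gave 2126 genes for the mean strain difference of CD4 and CD8 T cells, against 3384.

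With each library left out in turn, large rises ranged from 71 to 73 (39 to 43 opposite, 27 to 31 same) and large falls from 81 to 101 (73 to 91 opposite, 4 to 7 same). Called rises ranged from 1020 to 1617 and called falls from 1331 to 1671. Of the 167 named genes with a fitted value, 129 kept their direction and call in all 23 alternatives, 38 changed call in at least 1, and 0 changed direction. Depth limits statements on genes near the floor, where a library at 0 allows up to 0.0919 to 0.113 CPM.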
